A study of Mus musculus with 10 samples.

Results

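Across the Myc and Pvt1 locus of mouse embryonic stem cells, the peak list of RNA polymerase II (Pol II) after Adriamycin covered 104.8 kb, against 41.9 kb in untreated cells, while the H3K79me2 lists covered 208.8 and 207.5 kb. The locus was taken as chromosome 15 from 61790000 to 62110000 on the mm9 build, and its members were all deposited peaks that overlap this stretch. There were 277 of them among 543779 peaks in 10 lists. The stretch holds Myc (61816893 to 61821916) and Pvt1 (about 61869000 to 62078000). It was chosen by position and by the length of the H3K79me2 domain over Pvt1, with results of these data known, so the values below describe the locus and carry no test.

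The cells were R1E mouse embryonic stem cells of a C57BL/6X129Sv mixed background, grown with serum and leukemia inhibitory factor. They were left untreated or given 0.5 uM Adriamycin (doxorubicin), a topoisomerase II poison that breaks DNA, for 8 h. Chromatin immunoprecipitation with sequencing (ChIP-seq) was done for 5 targets in both conditions. H3K4me3 marks promoters, H3K27me3 is the Polycomb mark, H3K79me2 marks transcribed gene bodies, Pol II is the transcribing enzyme and hnRNP L binds RNA. With 1 library for each target and condition, no difference between conditions has a replicate check. No mm9 annotation was used, so marker genes of embryonic stem cells were not looked up.

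Myc encodes a transcription factor of the basic helix-loop-helix leucine zipper family that drives growth and proliferation and supports self-renewal of mouse embryonic stem cells. Pvt1, its neighbour, is a long noncoding RNA gene, known from retroviral insertions and translocations in mouse tumours. In mouse cells Pvt1 is a target gene of p53, and a stress-induced Pvt1 isoform is known to lower Myc transcription from the same chromosome. H3K79me2 is laid down by DOT1L in the wake of elongating Pol II. In the RefSeq annotation of another build, GRCm38.p6, no gene is listed between Myc and Pvt1, and Pvt1 is longer than the 209 kb taken here, so peaks just past its stated end may still lie in the gene.

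Over the whole series these lists covered less of the genome after Adriamycin. Covered length went from 77.4 to 54.7 Mb for Pol II (0.707 times), from 62.9 to 57.6 Mb for H3K4me3 (0.916 times) and from 138.9 to 130.1 Mb for H3K79me2 (0.937 times). Neither labels nor files used here state the read depth, and its part in any difference was not tested. The score of a peak is the authors' value from the peak caller. Some settings below apply the same score cutoff to both lists of a target. Median scores were 121.25 in untreated cells and 101.04 after Adriamycin for Pol II, and 385.71 and 334.56 for H3K4me3. Whether a score means the same in both lists was not tested.

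**Figure D1:**
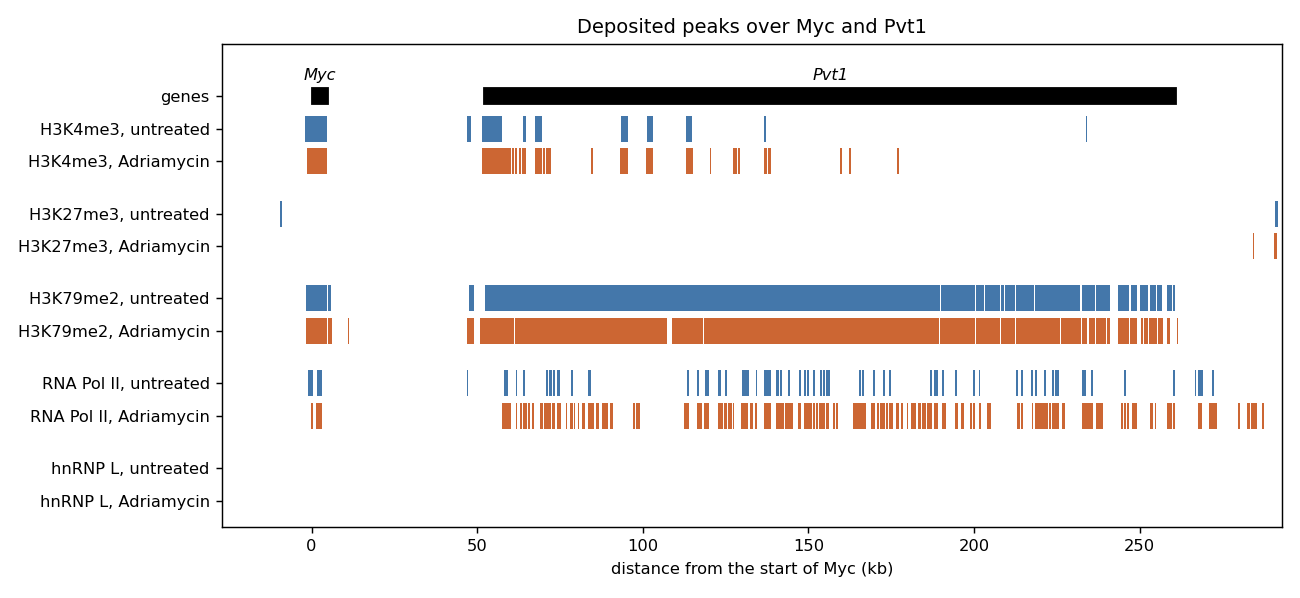
Deposited peaks over the 320 kb locus, by distance from the start of Myc in kb. Each block is 1 peak, blue for untreated cells and orange for Adriamycin, and black bars are the 2 genes. The Pol II row after Adriamycin covers 104.8 kb against 41.9 kb, most of it over Pvt1, and the hnRNP L rows are empty.

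By covered length, the Myc gene itself looked much alike in both conditions. H3K4me3 peaks covered 4.79 kb of its 5.02 kb untreated and 4.64 kb after Adriamycin. H3K79me2 covered 4.81 and 4.71 kb, and Pol II 1.99 and 2.26 kb. The 2 histone marks were near full coverage in both lists, so covered length could hardly show a difference in them. Myc thus lay under promoter and transcription marks along nearly its whole length, with Pol II over part of it in both lists. When weaker peaks than a score of 100 were dropped, Pol II covered 0.494 kb of Myc in untreated cells and 2.26 kb after Adriamycin, because a peak inside the gene lay just under that score in one list and just over it in the other.

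At the start of Myc, the untreated H3K4me3 peak ran from 61815070 to 61821682 and had a score of 3100, a value that many strong peaks share and a few exceed. The Adriamycin list held a peak from 61815422 to 61820702, also at 3100, and a second one from 61820785 to 61821617 with a score of 91.3. The mark began 1.82 kb before the gene start in untreated cells and 1.47 kb before it after Adriamycin. The main H3K79me2 peaks began inside the gene, at 61816898 in untreated cells (score 3100) and 61816918 after Adriamycin (score 3100). Weaker ones lay before the start in both. Since many peaks share the value of 3100, equal scores there do not show equal signal.

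Pol II had a peak on the Myc start in both lists, from 61816884 to 61817386 in untreated cells (score 445.54, higher than or equal to 79.6% of that list) and from 61816842 to 61817401 after Adriamycin (score 237.23, 75.6% of its list). A second Pol II peak lay inside the gene at 61818498 to 61819994 (score 90.5) in untreated cells and 61818173 to 61819927 (score 101.8) after treatment. A Pol II peak just before the gene, from 61815802 to 61816780 with a score of 140.24, was in the untreated list and had no partner after Adriamycin. The nearest Adriamycin peak began 62 bp away, so this is a difference at the edge of the start site.

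In the 47.1 kb between Myc and Pvt1, 1 site lay close to Pvt1. In untreated cells it held an H3K4me3 peak at 61863814 to 61865042 (score 420.16), a Pol II peak at 61863790 to 61864214 (score 68.9) and an H3K79me2 peak at 61864434 to 61865872 (score 431.57). After Adriamycin the H3K79me2 peak was there, at 61863917 to 61865870 (score 490.49), and the H3K4me3 and Pol II lists had none, with the nearest peaks 3211 and 10262 bp away. The site lies 3128 to 5210 bp before the stated start of Pvt1. Its untreated H3K4me3 peak was near the middle of its list, with 51.4% of the peaks scoring the same or lower, and its Pol II peak was weak, with 22.8%.

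Pvt1 differed more. Of its 209 kb, Pol II peaks covered 36.1 kb (17.3%) in untreated cells and, after Adriamycin, 94.6 kb (45.3%), a ratio of 2.62. H3K4me3 covered 15.4 kb (7.35%) and 28.7 kb (13.7%), a ratio of 1.87. H3K79me2 covered 198.7 kb (95.1%) and 197.4 kb (94.4%), a ratio of 0.993. H3K79me2 was near full coverage in both lists, which leaves little room for more, and its small difference turned with the score filter (log2 ratio -0.01 with all peaks and 0.03 with a score of at least 100). For Pol II the log2 ratio in Pvt1, with 1 kb added to each length, was 1.37 with all peaks and 1.95 with a score of at least 100, and for H3K4me3 it was 0.86 and 1.25. With a score of at least 200 it was 2.90 for Pol II and 0.74 for H3K4me3, so the H3K4me3 ratio passed 1 at the middle setting alone of these 3.

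**Figure D2:**
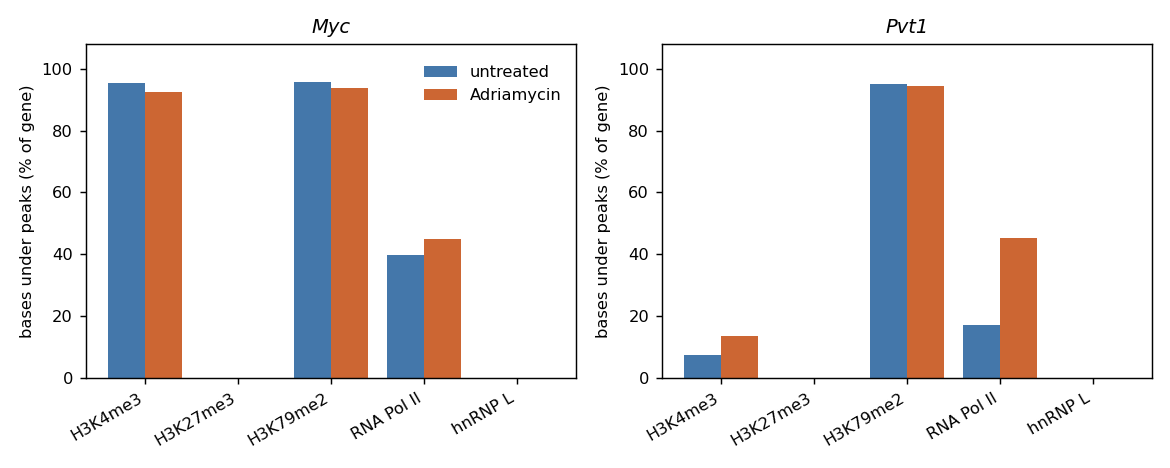
Share of the bases of Myc and of Pvt1 under peaks, in percent, for the 5 targets in untreated and Adriamycin-treated cells. Each bar is 1 library, so there are no error bars. In Pvt1 the Pol II bars stand at 17.3% and 45.3%, and in Myc at 39.6% and 45.1%.

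The added Pol II lay beside and between the peaks seen in untreated cells. Of the Pol II-covered bases of Pvt1 in untreated cells, 96.3% were covered after Adriamycin too, and 63.3% of the bases covered after treatment had not been covered before. All 51 untreated Pol II peaks of Pvt1 had a partner after Adriamycin, where 48.0% of the untreated list had none. A partner is a Pol II peak that overlaps by at least 1 bp. After Adriamycin, Pol II covered 45.3% of Pvt1 with a median gap of 559 bp, and the 51 peaks had a median width of 601 bp. The covered length alone thus made a partner likely, so this count says little about position. Of the 94 Pol II peaks of Pvt1 after Adriamycin, 46 had no untreated partner, where 26.1% of the Adriamycin list had none. These 46 had a median score of 91.8 and a highest score of 459.63, and the 48 with a partner had a median of 229.69, so the unpartnered ones were mostly the weaker peaks of the gene.

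For the whole locus, 3 of 58 untreated Pol II peaks had no partner (5.17%, exact Clopper-Pearson 95% interval 1.08 to 14.4%), against 48.0% of the untreated Pol II list. Of the 103 Adriamycin peaks 51 had none (49.5%, 39.5 to 59.5%), against 26.1% of that list. The untreated Pol II peaks of the locus were weak, with a median score of 85.3 where the list had 121.25. Most of them lay in Pvt1, where the covered length after Adriamycin made a partner likely, so their low share without one says little. The intervals cover counting error only, and neighbouring peaks are not independent. The order of the peak numbers turned when peaks within 1 kb were merged, to 41 in untreated cells and 36 after Adriamycin, so the covered length and not the number of peaks carries the difference.

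Pol II peaks of the locus were also wider. In all, 42 of its Pol II peaks matched 1 to 1 between conditions, and 34 of them were wider after Adriamycin, with a median difference of 253 bp. Over all 34676 such pairs of the Pol II lists 37.1% were wider, and the median difference was -58 bp. For H3K4me3, 6 of 7 matched peaks of the locus were wider, against 31.3% of all pairs, and for H3K79me2 6 of 8, against 32.9%. Peaks split or joined between the lists fall out of such pairs. The H3K4me3 peak at Myc and the longest H3K79me2 peaks are among them. These 7 and 8 pairs therefore do not stand for the marks over the whole locus.

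Along the gene, Pol II covered more after Adriamycin in 11 of 11 bins counted from the start of Pvt1, of 20 kb each but for a shorter last one. The first bin went from 3.36 to 8.90 kb, and the second from 3.43 to 10.5 kb. The largest difference was 120 to 140 kb into the gene, with 3.59 kb in untreated cells and 12.3 kb after treatment. The difference was thus spread over the gene body and not limited to its start.

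One stretch had little Pol II in either condition. From 40 to 60 kb into Pvt1, Pol II covered 0 kb untreated and 1.98 kb with Adriamycin, the lowest of the 11 bins in both lists. The longest stretch without a Pol II peak in the gene fell there in both, with 29.0 kb in untreated cells (61901169 to 61930135) and 13.3 kb after Adriamycin (61915954 to 61929301). H3K79me2 covered 99.6% and 92.8% of that bin, so the gene-body mark ran through it. H3K4me3 covered 4.14 and 4.51 kb there, more in untreated cells than in either neighbouring bin.

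**Figure D3:**
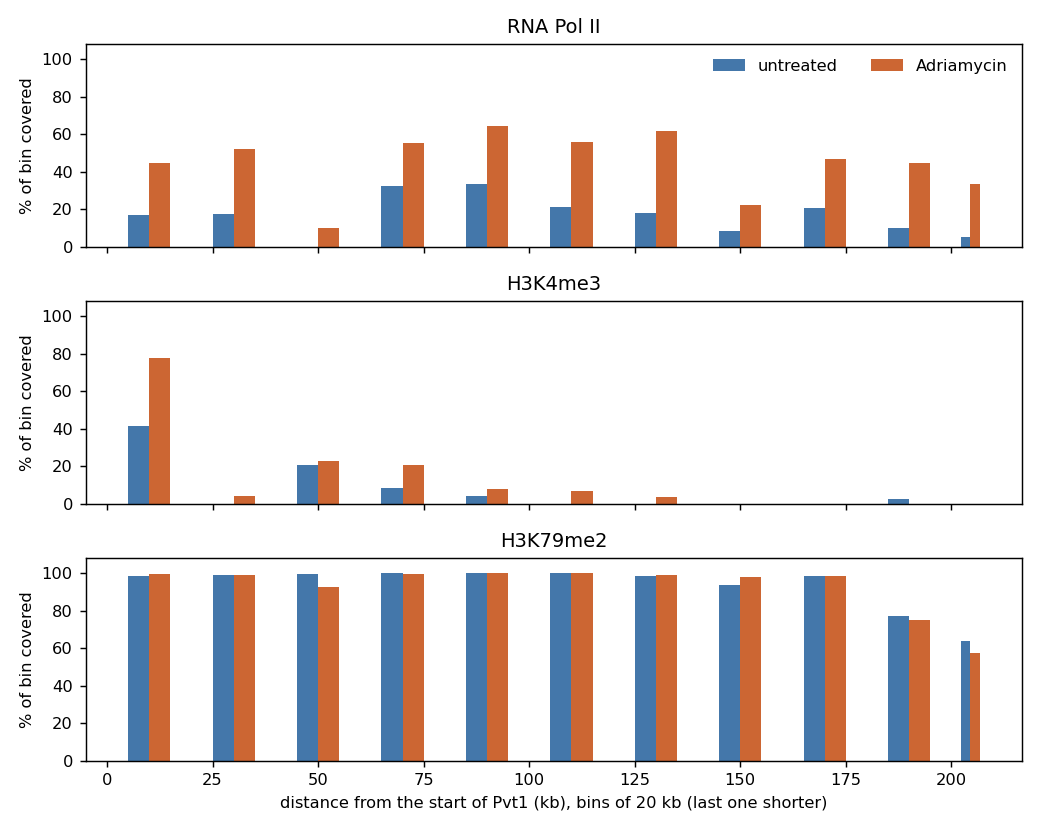
Share of each bin of Pvt1 under peaks, in percent, from the start of the gene (0 kb) to its end, for Pol II, H3K4me3 and H3K79me2. Blue bars are untreated cells and orange bars Adriamycin, 1 library each. Pol II is higher after Adriamycin in 11 of 11 bins, H3K4me3 mainly in the first, and H3K79me2 is at 92.8% or more in both conditions over the first 9 bins.

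The start of Pvt1 carried the strongest H3K4me3 peak of the gene. In untreated cells it ran from 61868310 to 61874330 (6021 bp, score 1392.85), and after Adriamycin from 61868253 to 61877259 (9007 bp, score 2966.96). Its upstream edge was at almost the same base, and the added length lay on the gene side. The first 20 kb of Pvt1 had 8.25 kb of H3K4me3 in untreated cells and 15.5 kb after treatment, which is 7.29 kb of the difference.

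H3K4me3 also appeared in small peaks, some beside the start peak and some deeper in the gene. The Adriamycin list held 23 H3K4me3 peaks in Pvt1, the start peak included, of which 14 had no untreated partner. The untreated list held 9, of which 1 had none. The 14 began 8329 bp or more into the gene, and a part of them lay in the first 20 kb described above. Over the whole lists 15.8% and 14.5% of H3K4me3 peaks had no partner. The 14 were modest, with scores from 62.0 to 191.38 in a list whose median was 334.56. Of these, 9 overlapped a Pol II peak of the same condition, as did 5 of the 9 with an untreated partner. Pol II covered 45.3% of Pvt1 after Adriamycin, so such overlap says little. The last H3K4me3 peak of the Adriamycin list ended 125.25 kb into the gene. In untreated cells a lone peak at 62050589 to 62051090 (score 56.9) lay further along, and without it the last ended 85.2 kb in.

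Over the locus, 14 of 25 H3K4me3 peaks after Adriamycin had no partner (56.0%, 34.9 to 75.6%), against 15.8% of the Adriamycin H3K4me3 list. In untreated cells 2 of 11 had none (18.2%, 2.28 to 51.8%), against 14.5% of that list. These are the site before Pvt1 and the lone peak late in the gene. When peaks within 1 kb were merged, the locus held 10 H3K4me3 peaks in untreated cells and 13 after Adriamycin. Most of the excess in number thus came from closely spaced peaks. Neighbouring peaks are not independent, so here too the intervals cover counting error only.

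No Pol II peak covered the stated start of Pvt1 in either list. The first Pol II peak began 6.01 kb into the gene in untreated cells (61875007 to 61876102, score 115.1) and 5.48 kb into it after Adriamycin (61874476 to 61877061, score 218.57). The untreated peak lay past the end of the H3K4me3 peak at the gene start, and the Adriamycin peak lay under the longer H3K4me3 peak. Whether the peak caller passed over Pol II signal at the start was not tested.

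The strongest Pol II peak of Pvt1 was at 61986284 to 61987058 in untreated cells (score 426.89) and at 61953474 to 61955723 after Adriamycin (score 635.65). The first of these places had a peak after Adriamycin (61986319 to 61987032, score 395.87), and the second had one in untreated cells at 61953542 to 61954693 (score 159.37). Both sites lie in the body of the gene, far from its start. The second also held H3K4me3 in both lists, with peaks of 75.3 in untreated cells and 96.9 and 152.41 after Adriamycin.

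Within Pvt1, Pol II and H3K79me2 lay together. All 51 untreated Pol II peaks and 93 of 94 after Adriamycin overlapped an H3K79me2 peak. Given how much of Pvt1 the mark covers, such overlap says little. Pol II overlapped H3K4me3 at 3 of 51 peaks in untreated cells and 13 of 94 after Adriamycin. H3K4me3 covered only 7.35% and 13.7% of the gene, so these low counts say little either.

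H3K79me2, whose domain helped to choose the locus, formed 1 long domain over Pvt1 when peaks were joined over gaps of up to 3 kb. It ran from 61869142 to 62077599 in untreated cells (208.5 kb, 31 peaks) and from 61863917 to 62078560 after Adriamycin (214.6 kb, 35 peaks). At this gap it was the second longest of 15040 domains in untreated cells and of 15235 after Adriamycin. Most of the added length after Adriamycin is on the upstream side, where the site before Pvt1 was joined to the gene, and a small weak peak at 62078188 to 62078560 (score 59.6) was added at the downstream end. Joined over gaps of up to 1 kb, the longest pieces measured 188.8 kb before (rank 2) and 132.2 kb after treatment (rank 7). Over gaps of up to 10 kb they measured 213.2 and 214.6 kb, with the site before Pvt1 joined in both lists, and had rank 8 in both. Rank and difference in length thus depend on the joining gap. The highest H3K79me2 scores of Pvt1 were 3142.76 in untreated cells, for the peak at 61969981 to 62006682, and 3100 after Adriamycin, a value that 11 peaks of the gene shared. The mark thinned in both lists over the last bins, to 63.7% of the shorter last bin in untreated cells and 57.2% after Adriamycin. Of the H3K79me2 peaks of the locus, 1 of 35 untreated had no partner (19.0% of the list) and 2 of 41 after Adriamycin (18.0% of the list). With 95.1% and 94.4% of Pvt1 under the mark, a 1 bp overlap there was nearly given in advance, so these counts say little.

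Past the stated end of Pvt1, Pol II covered 2.43 kb of 32 kb untreated and 7.86 kb after Adriamycin. Untreated cells had 3 peaks there, the strongest at 62084445 to 62085902 (score 361.58), and that place had a peak of score 103.81 after Adriamycin. The Adriamycin list had 7 peaks, and 5 of them had no untreated partner, where 26.1% of that list had none. Counts this small fix a share poorly. These 5 lay from 62096519 to 62104294, up to 26294 bp past the stated end, and the strongest had a score of 319.82. H3K79me2 covered 0 kb there in untreated cells and 0.373 kb after Adriamycin, so these Pol II peaks lay outside the gene-body mark.

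Polycomb and hnRNP L were nearly or wholly missing from the locus. H3K27me3 had 2 peaks in each list and covered 1.65 kb untreated and 1.06 kb after Adriamycin, with none over Myc or Pvt1. The strongest was at 62107625 to 62108584 in untreated cells (score 112.46), just inside the downstream limit, and the nearest outside it was at 62113252 to 62114033 (score 123.07). hnRNP L had 0 peaks in the locus among 1120 in untreated cells and 1022 after Adriamycin, and its nearest peaks were 1348 kb away in both.

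The locus stood alone in its surroundings. In the 5 stretches of equal length on each side, Pol II and H3K79me2 peaks covered 0 kb in both conditions, and H3K4me3 at most 3.63 kb untreated and 3.20 kb after Adriamycin. After Adriamycin the nearest Pol II peaks outside the locus were 1645 kb away on either side. The limits of the locus therefore cut through no Pol II or H3K79me2 peak.

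Other places in the genome mostly had less Pol II-covered length after Adriamycin. Among 2854 windows of the same length with at least 5 kb of Pol II in either condition, the median log2 ratio of the covered lengths (Adriamycin over untreated, 1 kb added to each) was -0.54. It was above 0 in 379 windows (13.3%). It was 1.30 in the locus, and 21 windows were higher. A log2 ratio of at least 1 was reached in 39 windows (1.37%) and one of at most -1 in 504 (17.7%). After Adriamycin 12 of 8232 windows had as much Pol II-covered length as the locus or more, and in untreated cells 518.

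For H3K4me3 the log2 ratio of the locus was 0.55, against a median of -0.10 over 3227 windows, and 46 windows were higher, so the locus lay above 98.6% of windows for H3K4me3 and 99.3% for Pol II. A log2 ratio of at least 1 was reached in 0.124% of these windows, and the locus did not reach it. For H3K79me2 the ratio was 0.01, against a median of -0.09 over 3148 windows, of which 723 were higher and 0.667% reached 1. Windows are not independent of each other and come from the same pairs of libraries, so their spread is no replicate error.

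**Figure D4:**
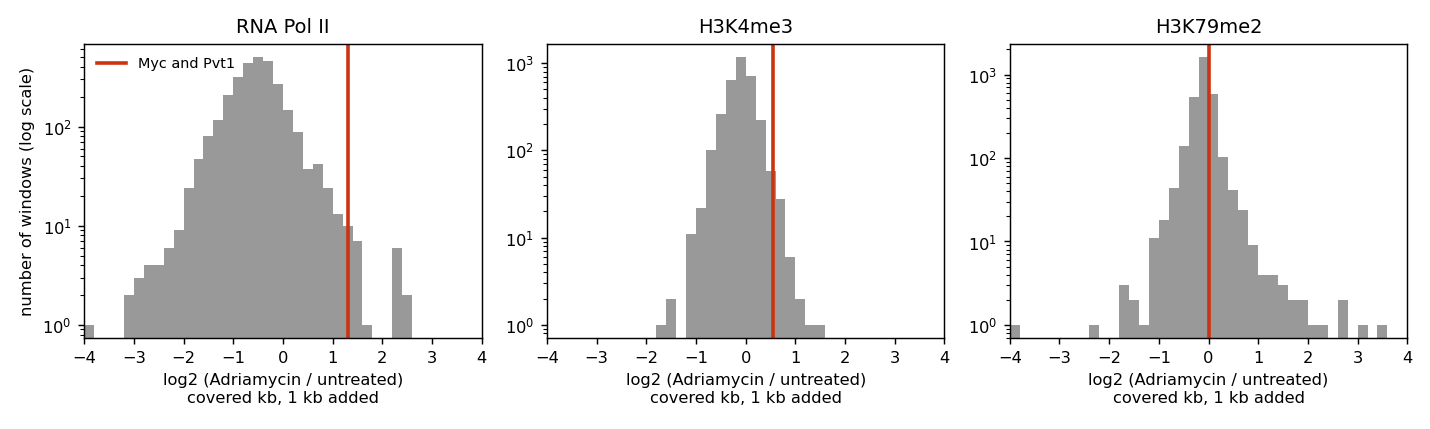
Windows of the length of the locus by the log2 ratio of covered lengths, Adriamycin over untreated, for Pol II, H3K4me3 and H3K79me2, with the number of windows on a log scale and values past 4 or -4 drawn at the ends. The red line is the Myc and Pvt1 locus, at 1.30, 0.55 and 0.01. For Pol II it stands far to the right of the bulk of windows, whose median is -0.54.

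Most other long H3K79me2 domains had less Pol II-covered length after Adriamycin. In untreated cells 60 H3K79me2 domains were at least 100 kb long, the one over Pvt1 included. In the other 59 the median log2 ratio of Pol II was -0.96, with a range from -3.27 to 2.27, and 7 were above 0. The Pvt1 domain had 1.37, the second highest, and 2 of the 60 (3.33%) reached 1. The higher one was on chromosome 1 at 91351667 to 91501641, where Pol II went from 3.64% to 20.1% of the domain. All 60 domains were picked from the untreated H3K79me2 list, while 45 domains of the Adriamycin list were that long. How far this choice favours lower values after Adriamycin was not tested.

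After Adriamycin the Pvt1 domain had the highest Pol II coverage of the 60, at 45.4% of its bases, where it had been 18th in untreated cells at 17.3%. The other domains had medians of 10.5% in untreated cells and 4.56% after Adriamycin. H3K4me3 in the Pvt1 domain had a log2 ratio of 0.86, the third highest, against a median of -0.19 in the others. H3K79me2 itself had -0.01, against -0.06.

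**Figure D5:**
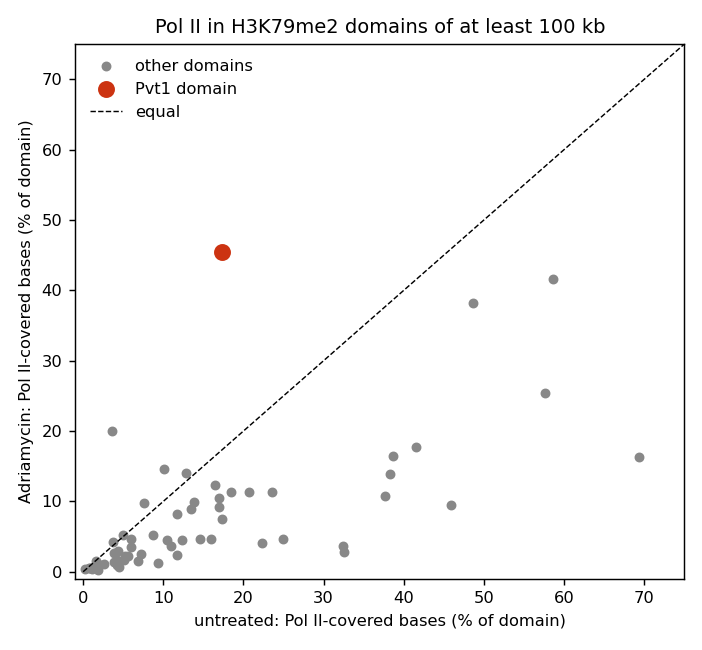
Pol II-covered bases as a percent of each of 60 H3K79me2 domains of at least 100 kb, in untreated cells (x axis) and after Adriamycin (y axis). Each point is 1 domain, and the dashed line marks equal values. The Pvt1 domain, in red, lies at 17.3% and 45.4%, above the line, while 52 of the other 59 do not.

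The 3 windows most like the locus over all 10 lists, by Euclidean distance on log2(covered kb + 1), were on chromosome 7 at 34880110 to 35200110 (distance 1.80), chromosome 5 at 124800391 to 125120391 (2.13) and chromosome 5 at 122560384 to 122880384 (2.15). The median distance over 8232 windows was 14.2. All 3 had long H3K79me2 coverage and little H3K27me3, as the locus had. Their Pol II log2 ratios were -0.82, -0.69 and -0.38, and their H3K4me3 log2 ratios -0.33, -0.07 and -0.35. The locus had 1.30 for Pol II and 0.55 for H3K4me3, so the likeness did not extend to the direction of either.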

How the data were processed

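Per the labels, ChIP DNA of 5 targets was sequenced, with 1 library per target and condition. Per the submitters' processing notes, CASAVA 1.8.2 and MACS 1.4.1 were named and the build was mm9. The authors deposited 1 peak list per library, with chromosome, start, end, name and a score for each peak. The score was read as MACS of this generation writes it, 10 times the negative log10 of a p-value. It served to describe peaks and to filter them, with the same cutoff in both lists of a target. Read depth and any input library are not stated in the labels or files used here, so how sensitive each library was is unknown.

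Starts were made 1-based. Covered length is the number of bases under peaks, and a partner is a peak in the list of the other condition, same target, overlapping by at least 1 bp. Windows of the length of the locus were tiled from the first base of 19 numbered chromosomes and X, leaving out those that touch the locus. A log2 ratio of at least 1 or at most -1 was taken as a call. No test was made. Intervals are exact Clopper-Pearson 95% intervals. Overlap and coverage steps were tested on simulated data.

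The members, gene limits and comparisons were chosen with earlier results of these data known. Peaks named are the highest-scoring of each target and condition in each gene, those at Myc, the longest domain and any of hnRNP L. Others were named after their values were seen: the H3K4me3 and Pol II peaks at the site before Pvt1, the lone late H3K4me3 peak, the first Pol II peaks of Pvt1, the partners of the strongest Pol II peaks, the peaks past its end, the H3K27me3 peaks and the domain on chromosome 1. The RefSeq table of GRCm38.p6 matched 2 of 2 genes and served for names and neighbours only. The RefSeq promoter table matched 0 of 2. Alternatives were equal numbers of top-scoring peaks, a score of at least 100, a 50% overlap, peaks within 1 kb merged, joining gaps of 1 and 10 kb, gene limits moved outward by 2 kb, 0.1 kb added and shifted windows. A score of at least 200, and ratios within Pvt1, were added after the data were seen. The work was done in Python 3.11.15 with pandas 2.3.3, numpy 2.4.6, matplotlib 3.10.9 and SciPy 1.17.1.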

Additional observations from a re-analysis of the deposited data

How the results depend on the processing

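With 1 library per target and condition and no read depth, none of these values has a replicate check, and no paired analysis was possible because no group holds replicates. Of 146 values under other settings, 105 stayed the same, 40 moved and 1 passed the call. The same means within 1.5 times the value reported or, for a log2 ratio, on the same side of the call and with the same sign. The Pol II log2 ratio of the locus ranged from 1.30 to 2.64, above at least 99.1% of windows in each setting, and that of H3K4me3 from 0.30 to 0.69, above 94.3% to 99.2%. The cause of the moves was not tested, beyond what each setting removes or joins.

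With a score of at least 100, Pol II peaks of the locus numbered 23 in untreated cells and 63 after Adriamycin, and untreated Pol II covered 20.9 kb of the locus, 18.0 kb of Pvt1, 0.494 kb of Myc and 0 kb between the genes. H3K4me3 peaks numbered 5 and 16, untreated H3K4me3 covered 9.14 kb of Pvt1, and the log2 ratio there was 1.25, but 0.736 with a score of at least 200. H3K27me3 peaks numbered 1 and 0 and covered 0.96 kb and 0 kb. The H3K79me2 log2 ratio in Pvt1 was 0.0293, and 0.0242 with a score of at least 200. Such peaks that met no peak of any score in the other list numbered 1 in untreated cells and 22 after Adriamycin for Pol II, 1 and 7 for H3K4me3, 0 and 0 for H3K27me3 and 0 and 0 for H3K79me2.

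With equal numbers of top-scoring peaks, untreated Pol II peaks numbered 37, of which 1 had no partner, and covered 0 kb between the genes, and 0 H3K79me2 peaks after Adriamycin had no partner. With a 50% overlap 2 untreated H3K79me2 peaks had none. Merged within 1 kb, peaks after Adriamycin numbered 36 for Pol II, 13 for H3K4me3 and 8 for H3K79me2, against 41, 10 and 5 in untreated cells. Over gaps of up to 1 kb the longest H3K79me2 domain after Adriamycin was 132.2 kb. With limits moved outward by 2 kb, H3K79me2 covered 7.34 and 7.51 kb at Myc and 6.05 and 8.53 kb between the genes, H3K4me3 5.69 and 4.37 kb between the genes, and Pol II 0.011 kb there after Adriamycin.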
